A study of Mus musculus with 30 samples.

Results

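The cytosolic heat shock proteins examined here are 10 genes read by symbol from the deposited expression table: Hspa1a, Hspa1b, Hspa8, Hspa4, Hsph1, Dnajb1, Hsp90aa1, Hsp90ab1, Hspb1 and Cryab. All 10 were found among the 47643 gene lines of the table, of which 23193 had a value above 0 in at least 1 library. Expression was measured by RNA sequencing of whole tibialis anterior, a fast muscle of the lower leg, from male C57BL/6J mice, in 30 libraries of 8 groups. The groups were muscle of 24-month-old mice (n = 3) and of 6-month-old mice (n = 3), of dexamethasone-treated mice (n = 4) and their controls (n = 4), of mice with LLC cancer (n = 4) and their controls (n = 4), and muscle given Cyr61 siRNAs (n = 4) or NT siRNAs (n = 4). Dexamethasone is a synthetic glucocorticoid, LLC is the usual short name of the Lewis lung carcinoma line, and Cyr61 is a secreted matrix-associated protein. Doses, durations and the ages of the mice outside the age comparison were not given in the sources used here, and the labels call the samples biological replicates without naming animals.

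Heat shock proteins are chaperones that keep other proteins folded. Hsp70 proteins bind exposed stretches of unfolded protein in cycles of ATP hydrolysis that J-domain proteins start and nucleotide exchange factors of the Hsp110 family end, and Hsp90 proteins take over clients such as kinases and steroid hormone receptors, the glucocorticoid receptor among them. Small heat shock proteins hold damaged proteins without using ATP and are abundant in striated muscle, where they associate with the contractile and desmin filaments. The inducible genes of these families are activated by heat shock factor 1, which binds repeats of the unit nGAAn in alternating orientation.

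The promoters of the near-identical pair Hspa1a and Hspa1b, of Hspb1 and a short stretch of Hsph1 are shown because each holds an inverted pair of such units, written GAANNTTC or TTCNNGAA. Sequences are from RefSeq (GRCm38.p6), 5′ to 3′ on the gene's strand; capitals mark the pair. The windows of Hspa1a, Hspa1b and Hspb1 end at the base before the transcription start and lie at chr17:34972157-34972406 (minus strand, Hspa1a), chr17:34959239-34959488 (minus strand, Hspa1b) and chr5:135887669-135887918 (plus strand, Hspb1). The Hsph1 stretch surrounds its pair and lies at chr5:149636351-149636380 (minus strand). It does not reach the RefSeq start sites of the gene, but it crosses the start of the GENCODE span at 149636376.
Hspa1a: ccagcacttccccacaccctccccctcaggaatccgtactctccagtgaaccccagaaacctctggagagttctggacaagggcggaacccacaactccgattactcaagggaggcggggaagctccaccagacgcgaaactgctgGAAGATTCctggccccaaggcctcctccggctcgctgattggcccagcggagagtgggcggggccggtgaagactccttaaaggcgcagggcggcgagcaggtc
Hspa1b: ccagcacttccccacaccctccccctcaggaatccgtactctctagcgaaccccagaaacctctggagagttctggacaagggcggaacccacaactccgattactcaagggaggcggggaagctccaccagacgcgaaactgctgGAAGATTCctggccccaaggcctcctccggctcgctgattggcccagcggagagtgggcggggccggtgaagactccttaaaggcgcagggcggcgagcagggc
Hspb1: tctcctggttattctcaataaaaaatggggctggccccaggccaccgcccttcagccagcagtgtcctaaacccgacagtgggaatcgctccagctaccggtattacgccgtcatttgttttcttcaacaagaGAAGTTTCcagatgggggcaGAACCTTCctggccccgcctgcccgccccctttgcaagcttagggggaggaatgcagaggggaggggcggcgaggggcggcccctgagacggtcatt
Hsph1: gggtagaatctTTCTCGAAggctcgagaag

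The table of promoters matched 6 of the 10 genes; Hspa8, Hsp90aa1, Hsp90ab1 and Cryab had no entry. Within the 250 bases before the start site, the pair was found once in Hspa1a and once in Hspa1b, 104 bases upstream in both, and at 2 places in Hspb1, 117 and 97 bases upstream. Hsph1 had 2 RefSeq start sites and its pair lay 54 bases upstream of one and 33 bases upstream of the other, but inside the span that the GENCODE annotation gives the gene, so it is not upstream of that annotated start. Both forms read the same on either strand. No match to these letters lay in the windows of Hspa4 and Dnajb1. Of the Dnajb1 windows, that at chr8:83608298-83608547 lay inside the span that the GENCODE annotation gives the gene, so it is not upstream of that annotated start. Of all 32851 windows of this length, 12.8% held at least 1 such pair, so a match is common and is a description of the letters, not of binding. The longer form, 3 such units in alternating orientation at the same spacing, was in 0.466% of windows and in none of the 6 genes. The promoters of Hspa1a and Hspa1b were identical at 247 of 250 bases and their longest open reading frames at 99.6% of aligned bases, with 8 differences. The sources used here do not say how reads common to both genes were assigned, so the split between these 2 genes is uncertain, and both are given side by side. The other relatives were further apart: the reading frames were 74.5% identical between Hspa1a and Hspa8, 66.9% between Hspa4 and Hsph1, 76.6% between Hsp90aa1 and Hsp90ab1 and 66.3% between Hspb1 and Cryab.

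Levels are in TPM, a length-normalised measure that divides reads by gene length and scales each library to the same sum, so levels of different genes can be set side by side. Muscle fibre markers (Ckm, Acta1, Mb, Mylpf, Tnnt3, Myh4 and Myh1) were all above 0 in every group and summed to between 61638 and 114113 TPM per library. The values behind Hspa1a were whole reads in all 30 libraries (tolerance 0.05 read), between 51 and 1058, and those behind Hspa1b between 32 and 696. A floor of 3 reads in a gene of 2 kb corresponds to 0.0512 to 0.0995 TPM, depending on the library, so all 10 genes stood above it throughout. Such read numbers cover counting error only. Mitochondrially encoded transcripts took 37.9% ± 3.2 of TPM in dexamethasone-treated muscle and 48.7% ± 2.1 in its controls (SD, n = 4 each), and because TPM is a share of a fixed sum, a smaller mitochondrial share raises every other gene. The dexamethasone changes of the 10 genes are therefore also given after median-of-ratios scaling, which divides each library by the median ratio of its genes to their geometric mean over libraries. In the LLC comparison, LLC replicate 3 had 60.4% mitochondrial TPM, and in Cyr61 siRNA muscle replicate 3 had 42.2%. Cyr61 itself ranged from 25.5 to 52.8 TPM in Cyr61 siRNA muscle and from 36.8 to 67.8 TPM in NT siRNA muscle, and the groups overlapped (log2 change -0.53 ± 0.25, SE; limma adjusted p = 0.999, unadjusted p = 0.0626).

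The small heat shock protein Cryab (αB-crystallin) and the constitutive chaperones Hsp90ab1 (Hsp90β) and Hspa8 (Hsc70) were the most abundant of the 10, and the stress-inducible Hsp70 genes Hspa1a and Hspa1b the least. Over the 30 libraries, median levels were 763 TPM for Cryab, 576 TPM for Hsp90ab1, 410 TPM for Hspa8 and 189 TPM for Hspb1, the small heat shock protein known as Hsp25 in mice. Medians of 34.2 TPM for Hspa4 and 14.8 TPM for Hsph1, both nucleotide exchange factors of the Hsp110 family, enclosed that of the inducible Hsp90α gene Hsp90aa1 at 21.1 TPM. The J-domain gene Dnajb1 followed at 4.43 TPM, then Hspa1a at 2.07 TPM and Hspa1b at 1.42 TPM. Ranges of neighbours in this order overlapped, except that the lowest Hspb1 value (66.1 TPM) lay above the highest Hspa4 value (58.4 TPM).

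Hspa1a and Hspa1b, the least abundant genes, spread the most, but among the others spread did not follow the order of levels. The highest library exceeded the lowest 23.9-fold for Hspa1b and 22.8-fold for Hspa1a, 8.39-fold for Hspb1 and 5.52-fold for Hsp90aa1. The spread was 4.11-fold for Hsph1 and 3.46-fold for Dnajb1. It was 2.30-fold for Hspa4, 2.59-fold for Hsp90ab1, 2.72-fold for Hspa8 and 2.78-fold for Cryab. Single libraries set several of these extremes. Dexamethasone replicate 3 was the highest of all 30 for Hspa8, Hspb1, Hspa4, Hsp90aa1 and Hsph1, LLC control replicate 1 for Hspa1a and Hspa1b, and LLC replicate 3 the lowest for Hsp90ab1, Hspb1, Hspa1a and Hspa1b. Relative to all TPM outside the mitochondrial genome, the 10 genes together made up 0.472% ± 0.067 in dexamethasone-treated muscle and 0.338% ± 0.041 in its controls (SD, n = 4 each). The corresponding shares were 0.405% ± 0.031 in old and 0.443% ± 0.063 in young muscle (n = 3 each), 0.395% ± 0.043 in LLC muscle and 0.392% ± 0.075 in its controls, and 0.406% ± 0.107 in Cyr61 siRNA and 0.358% ± 0.040 in NT siRNA muscle (n = 4 each).

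**Figure D1:**
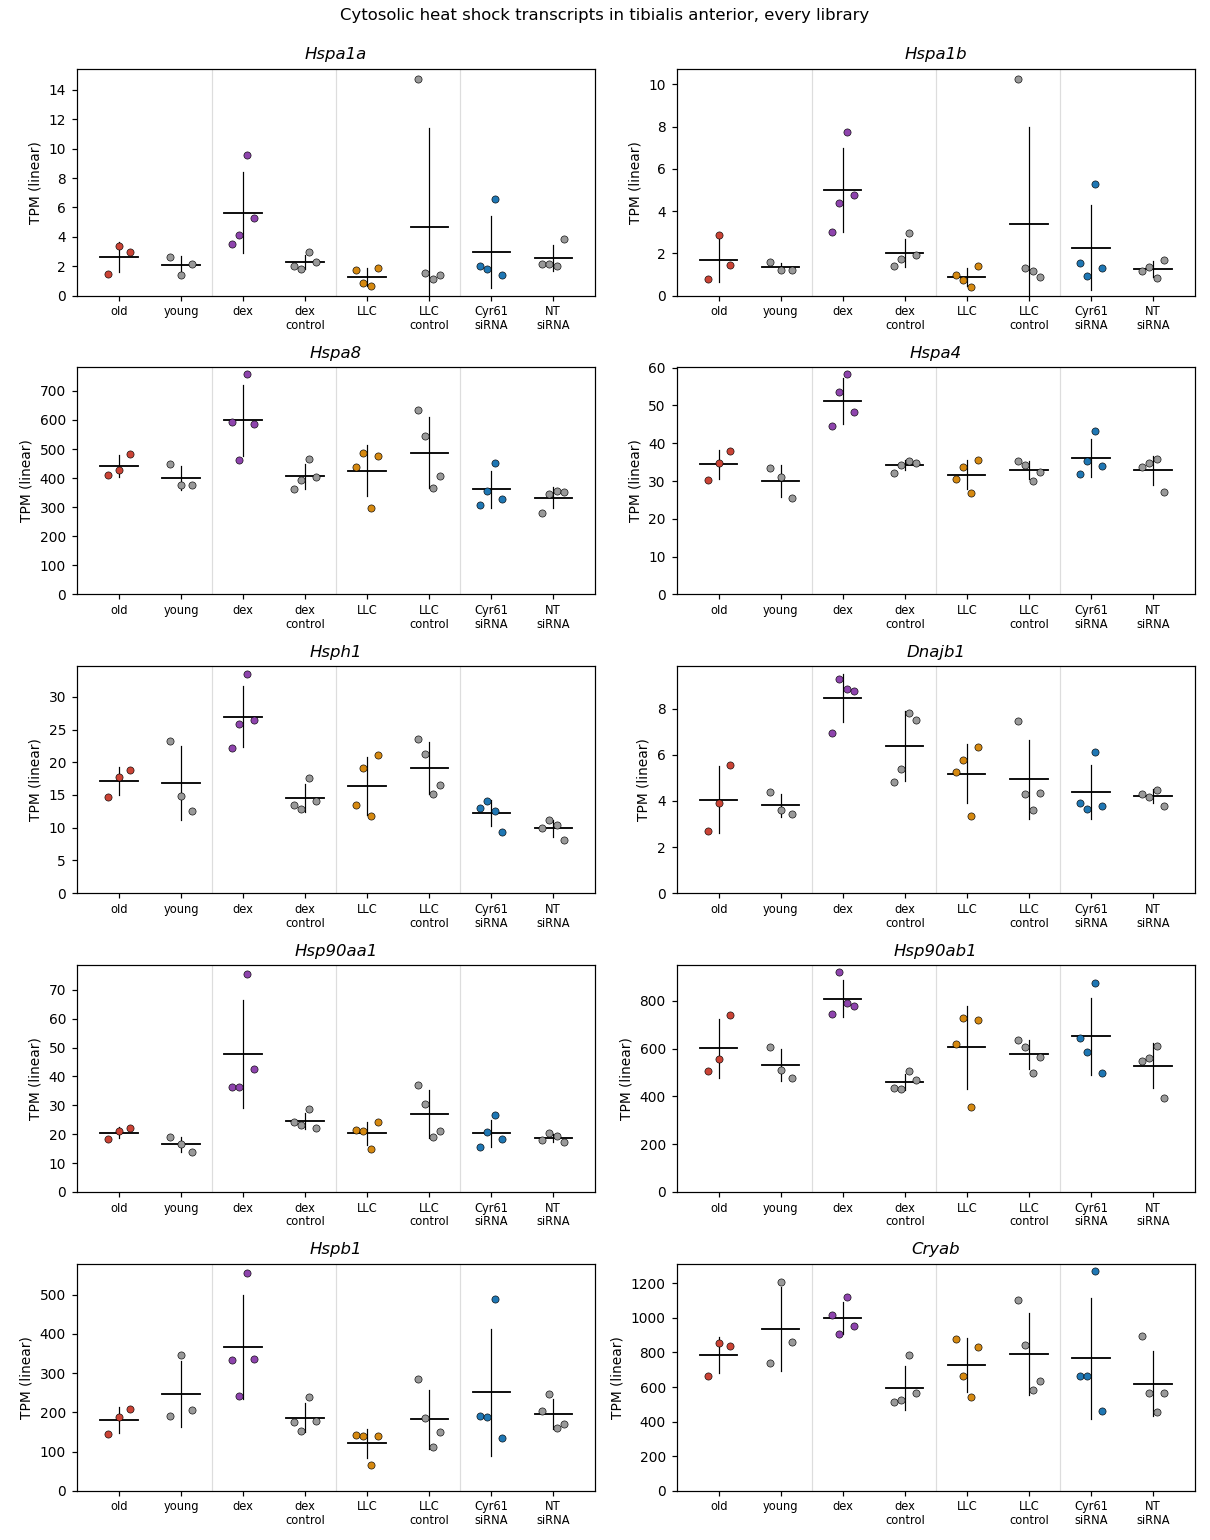
Level in TPM (linear axes from 0) of each of the 10 genes in every library; points are libraries, bars the group mean and vertical lines 1 SD (cut at 0). In 8 of the panels, dexamethasone is separated from its controls without overlap (all but Hspa8 and Dnajb1), and the single high points of Hspa1a and Hspa1b in the LLC controls are replicate 1, at 14.7 and 10.2 TPM.

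The first comparison asks how the genes differed between muscle of dexamethasone-treated mice and of their controls. All 10 were higher on average after dexamethasone. In the TPM as deposited 9 of the 10 passed the test (all but Dnajb1) and none was lower, where 35.9% of all 11944 genes tested were called higher; after scaling, 2 of the 10 were called higher, Hsp90ab1 and Hsph1, where 4.39% of all genes were. The median log2 change was 0.83 over the 10 genes and 0.33 over all genes tested, and 0.47 and 0.016 after scaling. Changes are differences of log2(TPM + 1), which understate the change of the low genes, and adjusted p-values are from limma with Benjamini-Hochberg adjustment over all genes. In whole muscle, a change in the number of cells of a type and a change in RNA per cell cannot be told apart.

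Among the Hsp70 genes, Hspa1a had 3.52, 4.11, 9.60 and 5.29 TPM in dexamethasone-treated muscle, against 2.01, 1.83, 2.97 and 2.32 TPM in its controls. Hspa1b had 3.02, 4.41, 7.77 and 4.77 TPM in dexamethasone-treated muscle, against 1.42, 1.73, 2.97 and 1.91 TPM in its controls. For both, every treated library lay above every control, with the third library of each group the highest. The log2 change was 0.94 ± 0.24 for Hspa1a (SE, adjusted p = 0.0164) and 0.96 ± 0.23 for Hspa1b (adjusted p = 0.0130), or 2.47-fold and 2.49-fold on the means. After scaling the changes were 0.66 (adjusted p = 0.0970) and 0.69 (adjusted p = 0.0618). Hspa8, the constitutive cytosolic Hsp70, had 593, 461, 757 and 585 TPM in treated muscle, against 363, 392, 464 and 405 TPM in controls. Its groups overlapped by a single pair of libraries, with a log2 change of 0.54 ± 0.15 (adjusted p = 0.0195) as deposited and 0.18 after scaling (adjusted p = 0.650).

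Of the genes that act on the Hsp70 cycle, the Hsp110 gene Hsph1 had 22.2, 25.8, 33.4 and 26.5 TPM in dexamethasone-treated muscle, against 13.5, 12.9, 17.7 and 14.1 TPM in its controls. The groups did not overlap, the log2 change was 0.84 ± 0.14 (adjusted p = 0.00371), and the gene stayed called after scaling at 0.49 ± 0.13 (adjusted p = 0.0396). Its relative Hspa4 had 44.4, 53.5, 58.4 and 48.2 TPM in treated muscle, against 32.2, 34.3, 35.3 and 34.9 TPM in controls. Hspa4 separated the groups as well, with a log2 change of 0.56 ± 0.10 (adjusted p = 0.00508) that was 0.20 after scaling (adjusted p = 0.241). Dnajb1, the J-domain partner of the inducible Hsp70, had 6.94, 9.28, 8.84 and 8.79 TPM in treated muscle, against 4.82, 5.38, 7.82 and 7.49 TPM in controls. The lowest treated library lay among the controls, and the log2 change of 0.37 ± 0.16 did not pass (adjusted p = 0.0817). After scaling it was 0.053 (adjusted p = 0.832), close to the median of all genes.

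The Hsp90 genes were both higher. Hsp90ab1 had 746, 923, 792 and 777 TPM in dexamethasone-treated muscle, against 434, 431, 505 and 471 TPM in its controls. It had the smallest adjusted p of the 10, with a log2 change of 0.81 ± 0.10 (adjusted p = 0.00118) as deposited and 0.44 ± 0.11 (adjusted p = 0.0372) after scaling. Hsp90aa1 had 36.5, 36.5, 75.6 and 42.6 TPM in treated muscle, against 24.1, 23.3, 28.7 and 22.1 TPM in controls. Replicate 3 stood well above the other treated libraries, all of which were above the controls; the log2 change was 0.87 ± 0.21 (adjusted p = 0.0137) as deposited and 0.52 (adjusted p = 0.188) after scaling.

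The small heat shock genes also separated the groups. Cryab had 1015, 905, 1122 and 954 TPM in dexamethasone-treated muscle, against 514, 523, 785 and 564 TPM in its controls. Hspb1 had 333, 242, 555 and 335 TPM in treated muscle, against 176, 152, 238 and 177 TPM in controls. For Hspb1 the lowest treated library was only just above the highest control, while Cryab left a wider gap. The log2 changes were 0.76 ± 0.14 for Cryab (adjusted p = 0.00512) and 0.93 ± 0.23 for Hspb1 (adjusted p = 0.0139), and after scaling 0.39 (adjusted p = 0.222) and 0.56 (adjusted p = 0.227).

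In all, 8 of the 10 genes were higher in every treated library than in any control, where 34.3% of all genes tested were. The count of called genes ranged from 7 to 10 when each library was left out in turn. It was 10 without dexamethasone replicate 1, where 70% of all genes were called higher, and 7 without control replicate 2, where 14.8% were. Hspa8 was lost without control replicate 1 (adjusted p = 0.0623) or 2 (adjusted p = 0.0583). Hspa1a was lost without control replicate 2 (adjusted p = 0.0538) and with all 8 groups in 1 fit (adjusted p = 0.0663). The count after scaling varied more: leaving out 1 library as well gave between 0 and 4 called genes, where 1.85% to 4.97% of all genes were called higher. It was 0 without dexamethasone replicate 3 or 4 or without control replicate 1, 2 or 4.

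**Figure D2:**
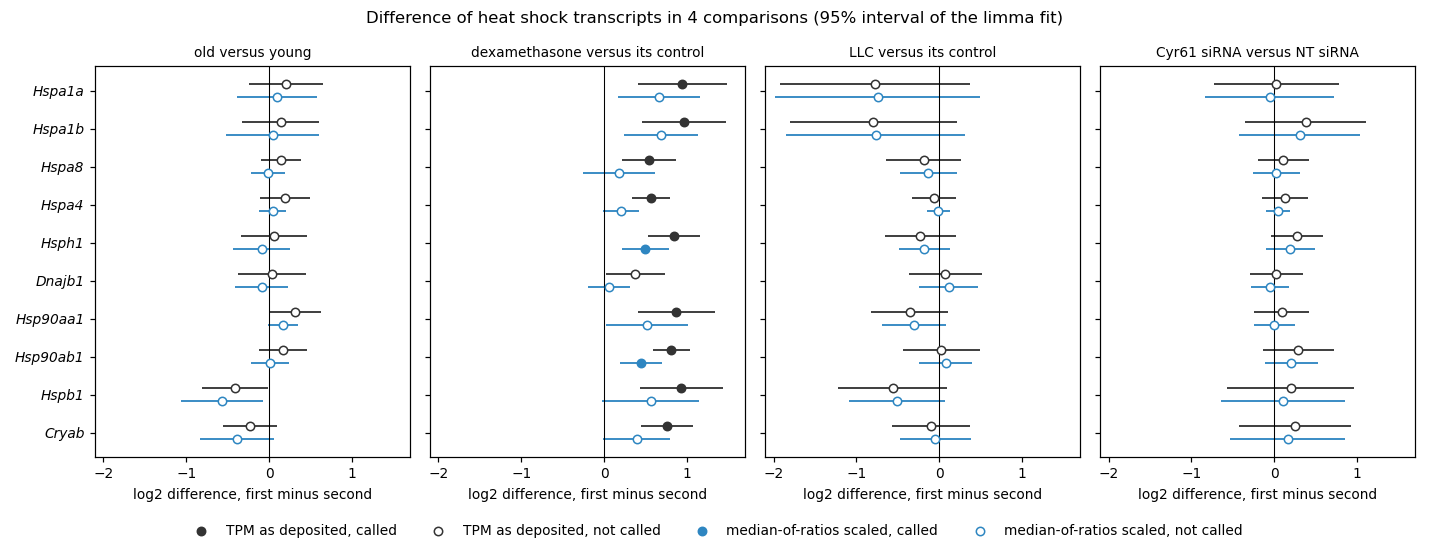
Difference of log2(TPM + 1) with its 95% interval for each gene in the 4 comparisons (x axis, first group minus second), for TPM as deposited (black) and after median-of-ratios scaling (blue); filled points passed an adjusted p of 0.05. Only the dexamethasone panel holds filled points, 9 as deposited and 2 after scaling.

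Markers of some other cell types moved with dexamethasone, where 35.9% of all genes tested were called higher as deposited and 4.39% after scaling. All 8 macrophage markers were called higher, summing to between 1076 and 2614 TPM in treated muscle and between 302 and 522 TPM in its controls. So were 2 of the 3 neutrophil markers tested (12.1 to 87.1 TPM for the whole list in treated muscle, 3.07 to 7.46 TPM in its controls, with Ly6g at 0 in all 8 libraries), 3 of 3 adipocyte markers (11.6 to 16.6 TPM in treated muscle, 2.52 to 7.21 TPM in its controls) and 4 of 5 smooth muscle and pericyte markers (359 to 495 TPM in treated muscle, 258 to 329 TPM in its controls). None of 7 muscle fibre markers, 5 Schwann cell markers or 5 red blood cell markers was called, and 1 of 5 fibroblast markers was higher and 1 of 6 endothelial markers lower. After scaling 4 macrophage, 2 neutrophil and 1 of the adipocyte markers were called higher, none of the smooth muscle and pericyte or fibroblast markers was, and 4 endothelial markers were called lower. The part of these cell types in the heat shock values was not tested.

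Related chaperone genes were read from 7 lists. Beside the counts of all 7 lists after dexamethasone, 35.9% of all genes tested were called higher as deposited and 4.39% after scaling. Of the 25 co-chaperones of Hsp70 and Hsp90, 16 were called higher and none lower after dexamethasone (median log2 change 0.41), but 1 remained called after scaling. That gene was Fkbp5, a co-chaperone of steroid receptors and a widely used marker of glucocorticoid exposure, at 18.4 ± 7.8 TPM in treated muscle and 6.06 ± 0.52 TPM in its controls (SD, n = 4 each; log2 change 1.37 ± 0.25, SE, adjusted p = 0.00457; after scaling 1.04, adjusted p = 0.00677). The next largest changes were 0.62 for the myosin chaperone Unc45b (adjusted p = 0.0202; 0.25 after scaling), 0.58 for Ptges3, the Hsp90 partner p23 (adjusted p = 0.00442), and 0.58 for the Hsp70-interacting gene St13 (adjusted p = 0.00378). Bag3, which links Hsp70 to small heat shock proteins in muscle, averaged 87.9 ± 21.6 TPM in treated muscle and 66.6 ± 11.02 TPM in its controls and was not called (log2 change 0.38, adjusted p = 0.108; 0.013 after scaling).

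All 3 heat shock transcription factors were called higher as deposited, Hsf1 at 36.1 ± 8.0 TPM in treated muscle and 22.7 ± 2.7 TPM in its controls (log2 change 0.63, adjusted p = 0.0148), with changes of 0.49 for Hsf2 (adjusted p = 0.00829) and 0.46 for Hsf4 (adjusted p = 0.0370); none remained called after scaling. Of 5 further small heat shock genes 4 were called higher, Hspb7 by 0.86 (adjusted p = 0.00912), Hspb8 by 0.73 (adjusted p = 0.0129), Hspb3 by 0.49 (adjusted p = 0.0233) and Hspb2 by 0.41 (adjusted p = 0.00953), while Hspb6 differed by 0.019 (adjusted p = 0.887); none remained called after scaling. All 8 subunits of the TRiC/CCT chaperonin, which folds actin and tubulin, were called higher, by between 0.48 and 0.63, led by Cct3 (0.63), Cct7 (0.63), Cct2 (0.61) and Cct4 (0.59), and again none after scaling.

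Among chaperones of other compartments, all 6 endoplasmic reticulum chaperones were called higher, including Calr by 0.93 (adjusted p = 0.00148), Hspa5 by 0.90 (adjusted p = 0.00176), Hsp90b1 by 0.88 (adjusted p = 0.00502) and Hyou1 by 0.81 (adjusted p = 0.0109), and Calr, Hspa5 and Hyou1 remained called after scaling. Of 8 mitochondrial chaperones 2 were called, Hspe1 by 0.45 (adjusted p = 0.0247) and Hspd1 by 0.38 (adjusted p = 0.0188). Of 7 other Hsp70 family genes 2 were, Hspa1l by 0.56 (adjusted p = 0.0166) and Hspa13 by 0.37 (adjusted p = 0.0397). Both counts are a smaller share than the 35.9% of all genes called higher, and none of these genes remained called after scaling. Differences between the lists were not tested.

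**Figure D3:**
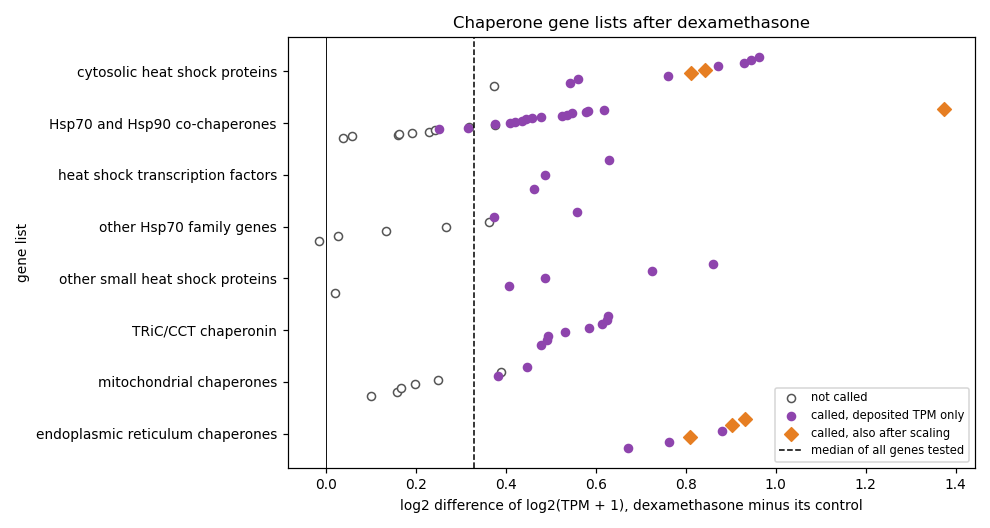
Difference of log2(TPM + 1) between dexamethasone-treated muscle and its controls for each tested gene of the cytosolic heat shock set and of 7 related lists; each point is a gene, open where not called, purple where called in deposited TPM only and an orange diamond where also called after scaling. The dashed line is the median of all genes tested, 0.33; the diamonds are Hsp90ab1, Hsph1, Fkbp5, Calr, Hspa5 and Hyou1.

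The second comparison asks how muscle of mice with LLC cancer differed from its controls. None of the 10 genes was called in either direction, as deposited or after scaling, where limma called 1.18% of 10830 genes as deposited and 3.27% after scaling. None had an unadjusted p under 0.05, against 13.2% of all genes, and no gene separated the groups, against 7.63% of all genes. The median log2 change was -0.21 over the 10 genes and -0.051 over all genes, and adjusted p-values lay between 0.471 and 0.984.

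Hspa1a had 1.73, 0.846, 0.645 and 1.88 TPM in LLC muscle, against 14.7, 1.51, 1.17 and 1.38 TPM in its controls. Hspa1b had 0.973, 0.736, 0.429 and 1.42 TPM in LLC muscle, against 10.2, 1.31, 1.16 and 0.899 TPM in its controls. A single control library, replicate 1, was far above all others in both genes, and the rest of the groups overlapped. The log2 change was -0.77 ± 0.52 for Hspa1a (SE, adjusted p = 0.594) and -0.79 ± 0.46 for Hspa1b (adjusted p = 0.512); without that library it was -0.088 and -0.19.

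Hspb1 had 141, 140, 66.1 and 139 TPM in LLC muscle, against 285, 185, 111 and 149 TPM in its controls. All LLC libraries but replicate 3 lay close together inside the control range, and replicate 3 was below it (log2 change -0.56 ± 0.30, adjusted p = 0.471). Hsp90aa1 had 21.6, 21.1, 14.7 and 24.1 TPM in LLC muscle, against 36.9, 30.5, 18.9 and 21.2 TPM in its controls, which overlapped (log2 change -0.36 ± 0.21, adjusted p = 0.531). For Hspa8, Hsph1, Cryab and Hspa4 the log2 changes were -0.19, -0.23, -0.10 and -0.061, and for Hsp90ab1 and Dnajb1 0.023 and 0.075. The widest of the 95% intervals, for Hspa1a, ran from -1.92 to 0.37 and the narrowest, for Hspa4, from -0.33 to 0.20.

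No gene of the 7 related lists was called in LLC muscle as deposited. Fkbp5 averaged 26.3 ± 12.9 TPM in LLC muscle and 6.94 ± 1.29 TPM in its controls (SD, n = 4 each), a log2 change of 1.59 ± 0.39 (SE, adjusted p = 0.0799) that passed after scaling at 1.63 (adjusted p = 0.0417). The Hsp70 exchange factor Bag2 was called lower after scaling, by a log2 change of -0.34 (adjusted p = 0.0278), and averaged 11.8 ± 1.6 TPM in LLC muscle and 15.7 ± 1.1 TPM in its controls. Hspb8 had a log2 change of -0.52 (adjusted p = 0.243) and Hspb6 of -0.47 (adjusted p = 0.414), and those of Hsf1, Bag3 and Unc45b were -0.18, -0.12 and -0.10 (adjusted p = 0.788, 0.893 and 0.863). Of the cell type markers, 1 of 3 tested neutrophil markers was called higher. The muscle fibre list summed to between 61638 and 89782 TPM in LLC muscle and between 91563 and 104922 TPM in its controls, but none of its 7 genes was called. The red blood cell list summed to between 717 and 7806 TPM in LLC muscle and between 622 and 792 TPM in its controls, and none of its 5 genes was called.

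The third comparison is of old with young muscle. None of the 10 genes was called, where 0.171% of 10511 genes were, and none after scaling, where no gene of the table was called although 13.1% had an unadjusted p under 0.05. The median log2 change was 0.14 over the 10 genes and also 0.14 over all genes, a shift that was 0.0052 over all genes after scaling. No gene of the 10 separated the groups, against 16.2% of all genes.

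The small heat shock genes Hspb1 and Cryab had the lowest log2 changes of the 10, and neither was called. Hspb1 had 145, 189 and 209 TPM in old muscle, against 190, 345 and 205 TPM in young muscle. The groups overlapped, with a single high young library, and the log2 change of -0.41 ± 0.19 had an unadjusted p of 0.0431 and an adjusted p of 0.437. The high library was young replicate 2, and without it the change was -0.15 (adjusted p = 0.799). Without young replicate 1 it was -0.57 and passed (adjusted p = 0.0496). Cryab had 665, 855 and 839 TPM in old muscle, against 741, 1208 and 859 TPM in young muscle, again overlapping (log2 change -0.23, adjusted p = 0.576). Hsp90aa1 had the largest increase of the 10 on the log2 scale, with 18.4, 21.03 and 22.3 TPM in old muscle, against 19.0, 16.7 and 13.7 TPM in young muscle (log2 change 0.31, adjusted p = 0.453). Hspa1a and Hspa1b differed by 0.21 and 0.14, Hspa4 by 0.19, Hsp90ab1 by 0.17, Hspa8 by 0.14, Hsph1 by 0.056 and Dnajb1 by 0.037; those of Hspa8, Hsph1 and Dnajb1 turned negative after scaling (-0.011, -0.090 and -0.091).

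No gene of the 7 related lists was called in old muscle. The small heat shock gene Hspb7, singled out after its values were seen, had the lowest adjusted p of these lists, at 196 ± 12 TPM in old muscle and 433 ± 207 TPM in young muscle (SD, n = 3 each; log2 change -1.04, adjusted p = 0.0653; after scaling -1.19, adjusted p = 0.311). Hspb6 came nearest among those followed in every comparison, at 535 ± 62 TPM in old muscle and 702 ± 24 TPM in young muscle (SD, n = 3 each; log2 change -0.40, adjusted p = 0.188). Hsf1, Bag3, Unc45b, Fkbp5 and Hspb8 had log2 changes of 0.029, 0.042, 0.20, -0.031 and 0.12, with adjusted p-values from 0.586 to 0.942.

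The fourth comparison is of muscle given Cyr61 siRNAs with muscle given NT siRNAs. None of the 10 genes was called and neither was any of the 11006 genes tested (0%); 0.99% of all genes and none of the 10 had an unadjusted p under 0.05 with limma. All 10 log2 changes were above 0 as deposited, and 8 after scaling, with the exceptions of Hspa1a and Dnajb1. As deposited, the median log2 change was 0.16 over the 10 genes and 0.072 over all genes, and 8 of the 10 lay above the latter. After scaling these medians were 0.076 and -0.0014. The largest were 0.38 for Hspa1b, 0.29 for Hsp90ab1, 0.27 for Hsph1 and 0.25 for Cryab, and every adjusted p was 0.999.

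A single Cyr61 siRNA library carried much of this. Hspa1b had 1.56, 0.943, 5.28 and 1.33 TPM in Cyr61 siRNA muscle, against 1.19, 1.37, 0.818 and 1.71 TPM in NT siRNA muscle. Hspb1 had 190, 188, 489 and 135 TPM in Cyr61 siRNA muscle, against 203, 247, 160 and 171 TPM in NT siRNA muscle. In both, replicate 3 was high. The other Cyr61 siRNA libraries lay within the NT siRNA range, except that replicate 4 was below it for Hspb1. Without it the log2 change was 0.0087 for Hspa1b, -0.18 for Hspb1, -0.35 for Hspa1a and -0.027 for Cryab. Hsph1 did not follow this pattern, with 13.05, 14.1, 12.5 and 9.40 TPM in Cyr61 siRNA muscle, against 9.92, 11.2, 10.4 and 8.14 TPM in NT siRNA muscle. No gene of the 7 related lists was called (Hspa4l was not tested), and Hsf1, Bag3, Unc45b, Fkbp5, Hspb6 and Hspb8 had log2 changes of 0.16, 0.081, 0.19, -0.028, 0.030 and 0.26.

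Whether the genes responded differently to the stimuli was tested as the difference between responses, each relative to its own controls, in a fit of 22 libraries. The LLC response was called below the dexamethasone response for 9 of the 10 genes, where 27.6% of all 12392 genes were called in either direction. Dnajb1 was below as well but not called (difference -0.30, adjusted p = 0.372). After scaling none of the 10 was called, where 6.29% of genes were. The differences were -1.76 ± 0.55 for Hspa1b (SE, adjusted p = 0.0262), -1.72 ± 0.60 for Hspa1a (adjusted p = 0.0402), -1.49 ± 0.40 for Hspb1 (adjusted p = 0.0145) and -1.23 ± 0.30 for Hsp90aa1 (adjusted p = 0.00834). Without LLC control replicate 1, the library with the high Hspa1a and Hspa1b values, they were -1.15 for Hspa1b (adjusted p = 0.0268) and -1.03 for Hspa1a (adjusted p = 0.0464). Those of Hsph1, Cryab, Hsp90ab1, Hspa8 and Hspa4 were -1.07, -0.86, -0.79, -0.73 and -0.62, against a median of -0.37 over all genes. After scaling the smallest adjusted p was 0.0645, for Hsph1, with a difference of -0.66.

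No gene of the 10 differed between the LLC and the old response (0.0484% of all genes did) or between the dexamethasone and the old response (2.06% of all genes did). In the dexamethasone and old pair, Cryab came nearest with a difference of 0.99 ± 0.30 (SE, adjusted p = 0.0946), followed by Hspb1 with 1.34 ± 0.44 (adjusted p = 0.131); without dexamethasone control replicate 3, Cryab passed (adjusted p = 0.0447). For the LLC and dexamethasone pair, Hspa4, Hsp90aa1, Hsph1 and Hspb1 passed with each of the 16 libraries of these groups left out in turn, while Hspa1a was lost in 7 of these fits, Hspa8 in 7, Cryab in 6, Hspa1b in 3 and Hsp90ab1 in 1. The count for this pair was 5 without dexamethasone replicate 3, dexamethasone control replicate 1 or 2, or LLC replicate 3. In these fits 13.7% to 16.5% of all genes were called.

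Ratios between 2 genes within a library do not depend on how libraries are scaled. These were chosen after the values had been seen, as 5 ratios in 4 comparisons, and tested by an exact two-sided permutation test of the log2 ratio with Benjamini-Hochberg adjustment over the 20 tests. None passed, with a smallest adjusted p of 0.381, but so few libraries made passing close to impossible after the adjustment. Inducible Hspa1a relative to constitutive Hspa8 was 0.883% in dexamethasone-treated muscle and 0.555% in its controls (geometric means; 1.59-fold; exact p = 0.0571), and Hspa1b relative to Hspa8 was 0.799% in treated muscle and 0.478% in its controls (exact p = 0.0571). In LLC muscle, Hspb1 relative to Cryab was 16.1%, 21.2%, 12.2% and 16.6%, against 25.8%, 21.9%, 18.9% and 23.4% in its controls; only LLC replicate 2 lay within the control range (exact p = 0.0571). The smallest p that 4 against 4 libraries allow is 0.0286. Hsp90aa1 relative to Hsp90ab1 was 5.64% in dexamethasone-treated muscle and 5.32% in its controls (exact p = 0.8286).

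Within groups, the 10 genes varied together from library to library. After subtracting each group's mean from log2(TPM + 1), Pearson's r was above 0 in all 45 pairs over the 30 libraries, with a median of 0.66, a lowest value of 0.36 between Hsph1 and Cryab and a highest of 0.96 between Hspa1a and Hspa1b. Other close pairs were Hspa8 with Hsp90aa1 (r = 0.88), Hspb1 with Cryab (r = 0.86) and Hspa4 with Hsp90ab1 (r = 0.81). Without LLC control replicate 1 and Cyr61 siRNA replicate 3, all 45 stayed above 0 and the median was 0.52. These values are descriptions: the genes of a library share its mitochondrial share and depth, Hspa1a and Hspa1b may share reads, and no test was made.

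**Figure D4:**
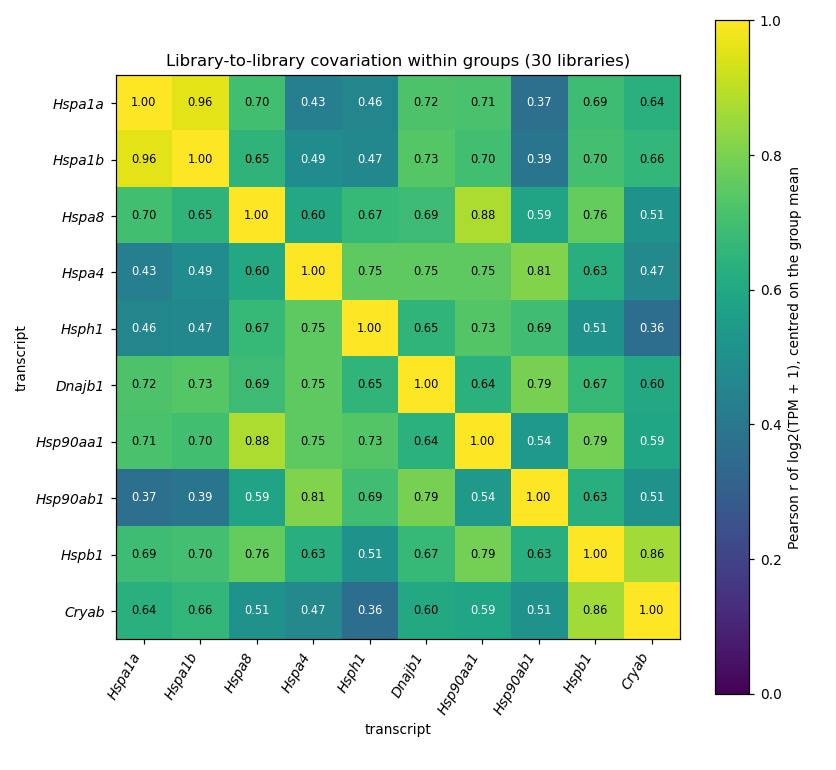
Pearson's r between each pair of the 10 genes over 30 libraries, computed on log2(TPM + 1) after subtracting the group mean; colour runs from 0 to 1 and the value is written in each cell. All 45 pairs are above 0, from 0.36 (Hsph1 and Cryab) to 0.96 (Hspa1a and Hspa1b).

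Among 8864 genes with at least 1 TPM in every library, those whose deviations from the group mean followed Hspa1b most closely were Dnajb4, a J-domain gene (r = 0.82), Slc38a2, an amino acid transporter (r = 0.81), Xirp1, an actin-binding protein of muscle (r = 0.81), and Ier5, an immediate early gene (r = 0.79). Without the same 2 libraries these were 0.68, 0.70, 0.53 and 0.51. For Hsph1 they were the co-chaperones Ahsa2 (r = 0.87) and Stip1 (r = 0.84), Armc5 (r = 0.84) and Odc1, the first enzyme of polyamine synthesis (r = 0.81), and these were 0.86, 0.84, 0.84 and 0.83 without the 2 libraries. For Cryab they were Csrp3, the muscle LIM protein (r = 0.87), the small heat shock gene Hspb7 (r = 0.82), Uck2, a pyrimidine nucleoside kinase (r = 0.81), and Ankrd2, a stretch-responsive ankyrin repeat gene of muscle (r = 0.81), with 0.84, 0.72, 0.66 and 0.74 without them.

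The genes lie on several chromosomes of mm10 in the GENCODE M21 annotation, and all are protein-coding. Hspa1a (ENSMUSG00000091971) spans chromosome 17 from 34969190 to 34972156 and Hspa1b (ENSMUSG00000090877) chromosome 17 from 34956436 to 34959238, both on the minus strand. Hsp90ab1 lies on the same chromosome from 45567775 to 45573271, Hspa8 and Cryab on chromosome 9 from 40800984 to 40810087 and from 50751325 to 50756636, and Hsph1 and Hspb1 on chromosome 5 from 149614287 to 149636376 and from 135887919 to 135889563. Hspa4 lies on chromosome 11 from 53259814 to 53300457, Hsp90aa1 on chromosome 12 from 110690605 to 110702728 and Dnajb1 on chromosome 8 from 83608193 to 83612653.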

How the data were processed

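Per the labels' protocols, RNA came from muscle homogenised in Trizol, and the stranded TruSeq mRNA libraries were run on an Illumina NovaSeq. The deposited table holds TPM computed by the authors, 1 column for each of the 30 libraries, on build mm10 per the submitters' processing notes. The sources used here do not give the aligner or the counting step (strand setting, annotation). Total depth was not estimated from TPM.

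Libraries were grouped by their labels. Each pair of groups was fitted alone with limma 3.58.1 (R 4.3.3; variance trend) on log2(TPM + 1), for genes with at least 1 TPM in a number of libraries equal to the size of the smaller group, two-sided, with Benjamini-Hochberg adjustment over all genes tested and a threshold of 0.05. Responses were compared by interaction contrasts in 22 libraries. P-values measure only the spread between these libraries. The fit was tested on simulated data. Alternatives were pseudocounts of 0.1 and 0.5, no filter, 5 TPM, both rescalings, all 8 groups in 1 fit, a replicate block, a threshold of 0.01 and leaving out each library.

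The genes, the related lists and the cell type markers were chosen with earlier results of these data known. Related genes were named if called, up to 4 a list by size of change, and Hsf1, Bag3, Fkbp5, Unc45b, Hspb6 and Hspb8 always; genes of like pattern were the 4 with the highest r, passing over numbered Gm, Rik and mitochondrial symbols. Promoters came from RefSeq (GRCm38.p6) and reading frames from GENCODE M21 transcripts, aligned with Biopython 1.88.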

Additional observations from a re-analysis of the deposited data

Results flagged for a closer look

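In the 6 groups of 4 libraries, each of the 10 genes was checked for a library standing apart from the other 3 by Dixon's gap test, 60 checks in all, of which chance gives about 1 in 20. A library stood apart in 10 checks in the TPM as deposited and in 7 after median-of-ratios scaling. After scaling these were LLC control replicate 1 for Hspa1a, Hspa1b and Dnajb1, and Cyr61 siRNA replicate 3 and NT siRNA replicate 4 for Hspa1a. LLC replicate 3 for Hspa8 and dexamethasone control replicate 3 for Cryab also stood apart after scaling. The cases as deposited follow, and those not named above did not stand apart after scaling. Cyr61 siRNA replicate 3 stood high for Hspa1a (6.60 TPM), Hspa1b (5.28 TPM), Hspb1 (489 TPM) and Dnajb1 (6.12 TPM). LLC control replicate 1 stood high for Hspa1a (14.7 TPM) and Hspa1b (10.2 TPM), and dexamethasone replicate 3 for Hsp90aa1 (75.6 TPM). LLC replicate 3 stood low for Hspb1 (66.1 TPM), NT siRNA replicate 1 low for Hspa8 (278 TPM) and NT siRNA replicate 4 high for Hspa1a (3.85 TPM).

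The response to LLC differed from the response to dexamethasone by the interaction contrast in 9 genes, where 27.6% of all 12392 genes differed. The log2 differences were -1.72 for Hspa1a, -1.76 for Hspa1b, -0.62 for Hspa4, -0.73 for Hspa8, -1.23 for Hsp90aa1, -0.79 for Hsp90ab1, -1.07 for Hsph1, -1.49 for Hspb1 and -0.86 for Cryab. Without LLC control replicate 1 those of Hspa1a and Hspa1b were -1.03 and -1.15. None of the 9 passed after scaling, where 6.29% of all genes did.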

How the results depend on the processing

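The 9 genes called in the dexamethasone comparison, where 35.9% of all genes were called higher, were 2 after median-of-ratios scaling (4.39% of all genes). They were 2 after rescaling without mitochondrially encoded genes (5.56% of all genes) and 4 at an adjusted p under 0.01 (9.75%). With each library left out they were from 7 to 10, where 14.8% to 70% of all genes were called higher. Scaling together with leaving out 1 library, added after the data had been seen, gave from 0 to 4, where 1.85% to 4.97% of all genes were. The 9 differences between the LLC and dexamethasone responses, where 27.6% of all genes differed, were 0 under either rescaling (6.29% and 5.64% of all genes). They were 0 with scaling and without LLC control replicate 1 (5.87% of all genes). With each library left out they were from 5 to 9, where 13.7% to 55.1% of all genes differed. With a library left out, the count of 0 for old versus young ranged from 0 to 1 (Hspb1, where 2.56% of all genes were called). That for the dexamethasone response minus the old response also ranged from 0 to 1 (Cryab, where 2.32% of all genes were called). For LLC, scaling without LLC control replicate 1 and LLC replicate 3 gave 1 called gene, Dnajb1, where 3.88% of all genes were called. The remaining alternatives left the counts within 1.5 times of those reported; the cause of these changes was not tested.

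Every gene-level value that changed sign was uncalled both ways. For old versus young, scaling gave log2 changes of -0.011 for Hspa8, -0.090 for Hsph1 and -0.091 for Dnajb1, which was -0.014 without mitochondrially encoded genes; leaving out libraries gave -0.16 to 0.40 for Hspa1b, -0.12 to 0.30 for Hsph1 and -0.17 to 0.24 for Dnajb1. For LLC, values without mitochondrially encoded genes were 0.082 for Hspa4 and 0.047 for Cryab, and ranges with libraries left out were -0.12 to 0.014 for Hspa4, -0.084 to 0.26 for Hsp90ab1, -0.23 to 0.075 for Cryab and -0.032 to 0.26 for Dnajb1. With scaling and without LLC control replicate 1, Cryab was 0.10, and without LLC replicate 3 as well, Cryab was 0.15, Hspa1a 0.023 and Hspa8 0.046. For the siRNA comparison, Hspa1a was -0.014 with a pseudocount of 0.1, -0.055 under scaling and -0.057 without mitochondrially encoded genes, and Dnajb1 -0.048 and -0.034 under the same 2 rescalings. Ranges with siRNA libraries left out were -0.35 to 0.21 for Hspa1a, -0.0019 to 0.18 for Hspa8, -0.045 to 0.20 for Hsp90aa1, -0.18 to 0.43 for Hspb1, -0.027 to 0.46 for Cryab and -0.12 to 0.088 for Dnajb1. Dnajb1 changed by -0.033 with dexamethasone under scaling without control replicate 1. For the LLC response minus the dexamethasone response, Dnajb1 was 0.075 under scaling, 0.072 without mitochondrially encoded genes and 0.23 under scaling without LLC control replicate 1. For the LLC response minus the old response, Hsp90ab1 and Hspb1 were 0.062 and 0.058 under scaling and 0.057 and 0.053 without mitochondrially encoded genes, and ranges with libraries left out were -0.26 to 0.092 for Hsp90ab1, -0.41 to 0.12 for Hspb1, -0.069 to 0.30 for Cryab and -0.17 to 0.25 for Dnajb1.

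Deviations of libraries with the same replicate number correlated with r from 0.027 to 0.50, all above 0. In no comparison was the same number the closest match in every pair. These values cannot decide whether the numbers mark pairs, and the main fits treated the libraries as unpaired. With a replicate block the called genes of the 10 were 0 for old versus young, where 1.45% of all genes were called, against 0.171% without the block. For dexamethasone they were 10, where 46.3% of all genes were called higher, against 35.9% without the block. For LLC they were 0, where 4.64% of all genes were called, against 1.18%, and for the siRNA comparison 0, where 0% were. Hspa1a and Hspa1b rest on at least 51 and 32 reads in every library, but their split is uncertain. Groups of 3 or 4 libraries leave wide intervals.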
